A study of Homo sapiens with 4 samples.

Results

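Cadherins are membrane proteins that hold cells together through calcium-dependent contacts between the repeated domains they carry outside the cell. The superfamily also holds the desmosomal cadherins of strong epithelial junctions, the protocadherins by which neurons and other cells recognise each other, and the very large FAT, Dachsous and Flamingo (CELSR) cadherins that orient cells within a sheet. All genes of these families were described here in cells depleted of the RNA demethylase ALKBH5 and irradiated. Genes were chosen by name alone, as PCDH followed by any ending, CDH, CELSR, DCHS, DSG or DSC with a number, or FAT1 to FAT4. The rule found 68 of the 14911 genes listed in the count tables. Of the 105 coding genes in Gencode v44 that bear such a name, the other 37 were listed in no library.

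The study measured N6-methyladenosine (m6A), a methyl mark on adenosines of mRNA that ALKBH5 removes, in HEK293T, a transformed human embryonic kidney line. Polyadenylated RNA was fragmented, and a library was made from the fragments themselves (input) and from those an m6A antibody pulled down (m6A-IP). The 2 cell populations had received lentiviral hairpins, either a control (shCTL) or one against ALKBH5 (shA5), puromycin had removed cells that took up no virus, and both populations were treated with X-rays. Each of the 4 groups is 1 library, so that no spread between replicates exists, no p-value was computed, and the hairpin and the culture it was grown in cannot be told apart.

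Totals were 2237819 (input) and 3944402 (m6A-IP) counts for shCTL and 1311390 (input) and 3148119 (m6A-IP) counts for shA5 cells. Values of the 4 libraries are given below in this order. The cadherin-family genes took 0.225, 0.312, 0.210 and 0.299% of them. ALKBH5 itself had 486 input counts in shCTL and 145 in shA5 cells, which is lower by 0.97 on the log2 scale in shA5 cells. Of 11 marker genes of the HEK293 lineage 10 were listed, PAX8 being the exception, but only 4 of these reached a mean of 50 counts, and PAX2 (1 count over all libraries), NEFM (17), VIM (22) and INA (35) were barely counted. Defining markers of hepatocytes and erythroid cells were listed in no library, as were KRT5, KRT14 and KRT1 of keratinocytes, CDH5 of endothelium, PTPRC and CD3E of leukocytes and COL1A2 and DCN of fibroblasts. The markers of these other cells that were listed are DSG3, 3 of 4 for endothelium, 2 of 4 for leukocytes and 2 of 4 for fibroblasts. Their summed input levels in shCTL and shA5 cells were 7.60 and 7.63 CPM (counts per 1e6 counts of the library) for keratinocyte markers, 7.60 and 0.763 CPM for endothelium, 6.70 and 6.10 CPM for leukocytes, and 179 and 114 CPM for fibroblasts. The fibroblast sum was mostly COL1A1, with 401, 578, 150 and 246 counts in the 4 libraries. COL1A1 was lower by 0.65 (log2) in the shA5 input and by 0.90 in the shA5 m6A-IP, and its part in any result below was not tested.

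m6A is placed on nascent mRNA at a 5-base motif written RRACH, in which A or G stands at the first and second base, then A and C, then A, C or T, and the mark lies on the A before the C. Exon junctions are known to keep the mark away from nearby bases, so that long exons carry most of it. The first coding exon of many protocadherins encodes the whole extracellular part in 1 piece, and the Flamingo genes open with a long exon that holds much, but not all, of it. The stretches of 60 coding bases with the most sense-strand motifs were therefore read from the longest coding exon of each well-counted gene (hg38, Gencode v44), and 5 of them are shown with the motifs in capitals. The first 2 belong to the gene with the highest m6A enrichment in shCTL cells and to a Flamingo gene, CDH4 follows as the gene whose enrichment was 1.5-fold lower or more in shA5 cells, and the last 2 belong to the genes depleted from the m6A-IP.
FAT4, coding part of exon 2, chr4:125317289-125317348, plus strand: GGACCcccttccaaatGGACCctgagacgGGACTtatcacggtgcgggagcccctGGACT
CELSR2, coding part of exon 1, chr1:109252985-109253044, plus strand: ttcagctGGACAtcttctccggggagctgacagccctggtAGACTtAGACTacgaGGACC
CDH4, coding exon 10, chr20:61923548-61923607, plus strand: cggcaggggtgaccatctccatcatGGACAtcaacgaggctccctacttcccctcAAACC
DSG2, coding part of exon 15, chr18:31545920-31545979, plus strand: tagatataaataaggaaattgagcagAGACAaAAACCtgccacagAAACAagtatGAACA
PCDH9, coding part of exon 2, chr13:67226878-67226937, minus strand: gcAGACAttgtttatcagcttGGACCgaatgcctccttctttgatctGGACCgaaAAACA
Both depleted genes hold 4 motifs in this window, as do FAT4 and CELSR2 among the genes enriched in shCTL cells, whereas CELSR1, DCHS1, PCDH7 and PCDH17 hold 3 and CDH4 holds 2. These windows were picked for their motifs from every start in the longest coding stretch, which is 254 nt in CDH4 and 5175 nt in FAT4. A longer stretch gives more windows to pick from, and the tiled windows that follow were not picked. Among 163535 coding windows of this length tiled over the tested genes, 57.0% held at least 1 motif and 0.687% held at least 4. A motif is a description of the letters and was not measured as a methylated site.

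By counts per kilobase, the highest members were the 3 Flamingo cadherins and the desmosomal cadherin DSG2. Flamingo cadherins work in planar cell polarity and in axon and neuronal migration, and DSG2 joins desmosomes in simple epithelia. Per kilobase of the counted transcript, the shCTL input level was 62.5 CPM for CELSR3 (exact 95% counting interval 59.6 to 65.6), 59.3 for DSG2 (55.1 to 63.7), 37.9 for CELSR2 (35.5 to 40.4) and 33.9 for CELSR1 (31.6 to 36.2). The intervals of CELSR3 and DSG2 overlapped, as did those of CELSR2 and CELSR1. All other members were far below these 4, the next being CDH15 at 6.70 CPM per kb (4.85 to 9.03), PCDH7 at 5.84 and CDH22 at 5.16. PCDH10, DCHS1, FAT4, PCDH19, CDH4, PCDH9 and PCDH17 lay between 3.87 and 1.78 CPM per kb, each with an interval that overlapped its neighbour's. In the shA5 input CELSR3 stood at 64.0 CPM per kb (60.1 to 68.1) and DSG2 at 46.2 (41.4 to 51.3), so that these intervals no longer overlapped. Such intervals hold the counting error alone, as no molecular identifiers were read, and not the spread between cultures. The order is one of counts and need not be one of RNA levels. How reads shared by transcripts were counted is not given in the sources used here, and GAPDH had only 34.9 CPM in the shCTL input.

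**Figure D1:**
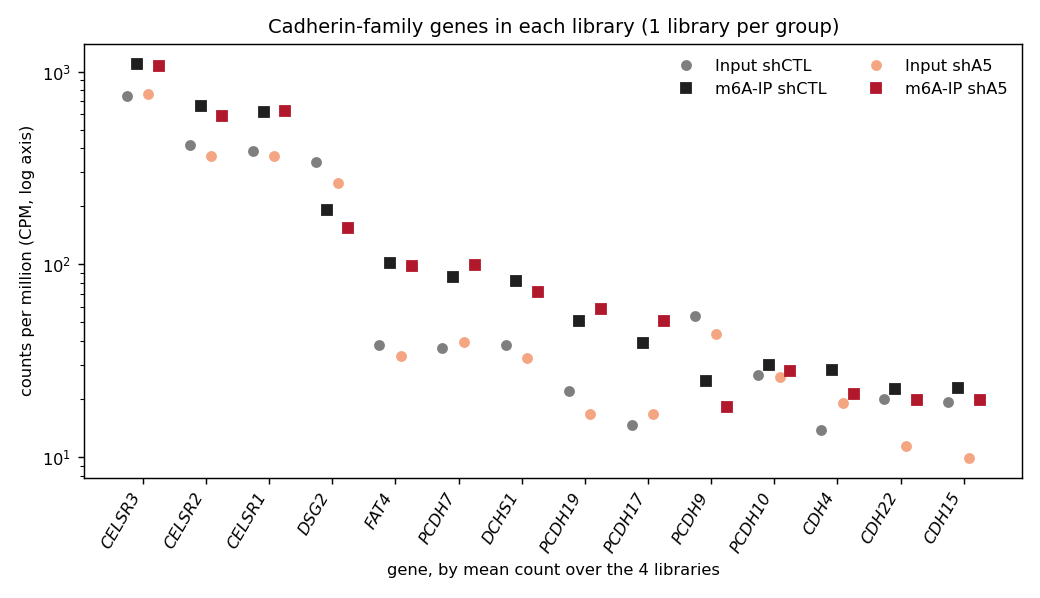
CPM (log axis) of the 14 cadherin-family genes whose mean count reached 50, in the input (circles) and m6A-IP (squares) libraries of shCTL and shA5 cells, 1 library each. The squares lie above the circles for all genes except DSG2 and PCDH9, and the largest ratio between the 2 inputs is that of CDH15, at 19.2 and 9.91 CPM.

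A mean of 50 counts over the 4 libraries was reached by 5320 genes, 14 of them members, and these 14 held 95.7 to 98.0% of the family's counts in each library. m6A enrichment was the log2 ratio of m6A-IP CPM to input CPM, each with 0.5 CPM added, and 1.5-fold was the size named here as enriched or depleted. In shCTL cells 8 of the 14 were enriched and 2 were depleted, while 22.5% and 30.3% of all 5320 genes were. In shA5 cells 9 of the 14 were enriched and 2 depleted, against 24.3% and 31.7% of all genes. The median enrichment of the 14 was 0.67 in shCTL and 0.77 in shA5 cells, where that of all genes was -0.11 and -0.10.

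The giant cadherins FAT4 and DCHS1, which bind each other across neighbouring cells as receptor and ligand, lay high in this order. FAT4 had 85 input and 403 m6A-IP counts in shCTL cells, and 44 and 309 in shA5 cells. Its enrichment was 1.42 (1.09 to 1.78) and 1.53 (1.09 to 2.04), the highest of the 14 in shCTL cells. DCHS1 had 85, 325, 43 and 227 counts with an enrichment of 1.11 (0.77 to 1.48) in shCTL and 1.13 (0.66 to 1.64) in shA5 cells. For both genes the m6A-IP level was above the input level by more than 2-fold in each population. Together with FAT1, FAT3 and DCHS2, which are below the count filter, the summed enrichment was 1.18 (0.95 to 1.42) in shCTL and 1.32 (1.01 to 1.66) in shA5 cells.

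The 3 Flamingo cadherins gave the most precise values of the family. CELSR1 had 863 input and 2425 m6A-IP counts in shCTL cells and 479 and 1976 in shA5 cells, an enrichment of 0.67 (0.56 to 0.79) and 0.78 (0.64 to 0.93). CELSR2 had 933, 2607, 479 and 1845 counts, an enrichment of 0.66 (0.56 to 0.77) and 0.68 (0.54 to 0.83). CELSR3 had 1670, 4336, 1002 and 3379 counts, an enrichment of 0.56 (0.48 to 0.64) and 0.49 (0.39 to 0.59), just under 1.5-fold. In shA5 cells the intervals of CELSR1 and CELSR3 did not overlap. Summed over the 3 paralogs, enrichment was 0.62 (0.56 to 0.67) in shCTL and 0.61 (0.54 to 0.69) in shA5 cells.

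The non-clustered protocadherins, each read from its own locus, ran over the widest range of any class among the 14. PCDH17, a presynaptic adhesion protein of the brain, had 33, 154, 22 and 160 counts. Its enrichment was 1.37 (0.85 to 1.99) in shCTL and 1.57 (0.95 to 2.31) in shA5 cells. PCDH7 had 82, 339, 52 and 313 counts, an enrichment of 1.22 (0.88 to 1.60) and 1.32 (0.90 to 1.78). PCDH19, the X-linked gene of a clustering epilepsy, had 49, 200, 22 and 184 counts, an enrichment of 1.19 (0.75 to 1.69) and 1.77 (1.16 to 2.51), the highest of the 14 in shA5 cells. PCDH10, which belongs with them to the delta group of protocadherins, stood near even, with 60, 119, 34 and 88 counts and an enrichment of 0.17 (-0.29 to 0.64) and 0.11 (-0.48 to 0.72). PCDH9, of the same delta group, was depleted, with 121 input and 98 m6A-IP counts in shCTL cells and 57 and 57 in shA5 cells. Its enrichment was -1.11 (-1.52 to -0.73) and -1.24 (-1.82 to -0.71), the lowest of the 14 in both populations.

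DSG2 was the other depleted member. It had 756 input and 759 m6A-IP counts in shCTL cells and 345 and 486 in shA5 cells, an enrichment of -0.81 (-0.96 to -0.66) and -0.77 (-0.97 to -0.57). The 3 other listed desmosomal genes hold few counts, and the class summed to -0.81 (-0.96 to -0.67) and -0.80 (-1.0 to -0.61). DSP, which encodes the plaque protein desmoplakin on the inner face of the same junction, had 957, 3384, 531 and 2733 counts and an enrichment of 1.0 and 1.10, opposite in sign to DSG2. An antisense gene, DSG2-AS1, overlaps DSG2, and DCHS1, PCDH7, PCDH17, CDH2 and CDH3 are overlapped by antisense genes too. Whether the counting used strand is not given in the sources used here, so that reads from antisense genes may be part of the values of each of these.

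The classical cadherins CDH4, CDH15 and CDH22, calcium-dependent proteins that bind beta-catenin and p120-catenin inside the cell, had fewer counts and wider intervals. CDH4 (R-cadherin, type I) had 31, 112, 25 and 67 counts and an enrichment of 1.01 (0.45 to 1.66) in shCTL and 0.15 (-0.52 to 0.88) in shA5 cells. CDH15 (M-cadherin of muscle, type I) had 43, 90, 13 and 62 counts, an enrichment of 0.24 (-0.29 to 0.81) and 0.96 (0.11 to 1.98). CDH22 (type II, of the brain) had 45, 89, 15 and 62 counts, an enrichment of 0.16 (-0.37 to 0.72) and 0.76 (-0.05 to 1.70). For each of these genes the intervals of the 2 populations overlapped.

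**Figure D2:**
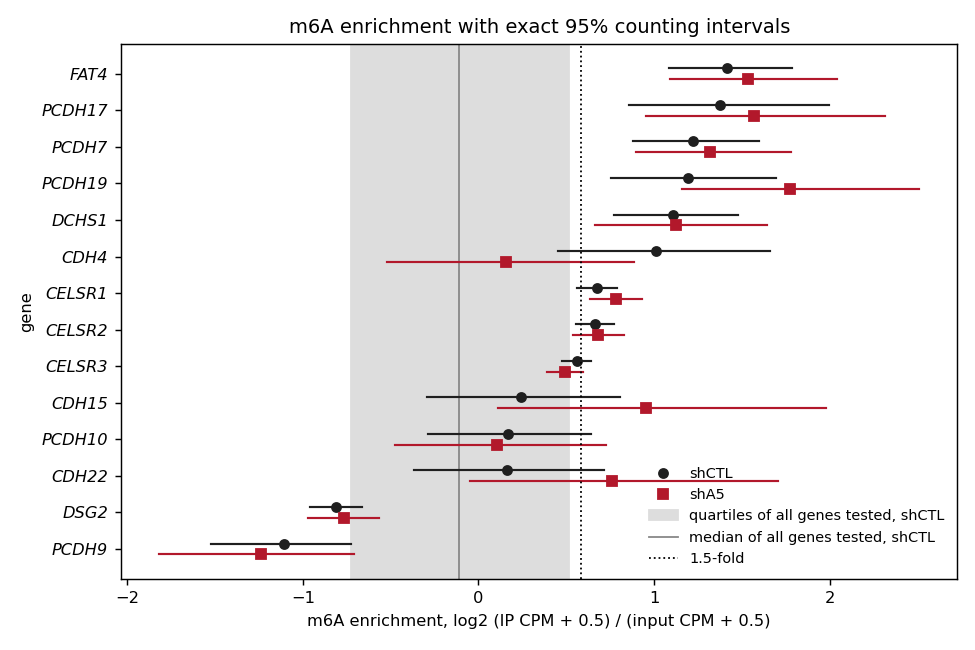
m6A enrichment, log2 of m6A-IP CPM over input CPM with 0.5 CPM added, of the 14 genes in shCTL (circles) and shA5 (squares) cells. Bars are exact 95% counting intervals, the grey band and line are the quartiles and median of all 5320 genes in shCTL cells, and 9 genes lie above that band in shCTL cells while DSG2 and PCDH9 lie below it.

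The order of the 14 was set beside the exon structure of the transcript that held their counts. Their longest coding stretch within 1 exon had a median of 2620 nt, from 254 nt in CDH4 to 5175 nt in FAT4, where the other genes had a median of 311 nt. Motif density did not set them apart, with a median of 13.2 motifs per kb in the 14 and 13.3 in the others. Of the 14, 10 had at least 2000 nt of coding sequence in 1 exon, namely CELSR1, CELSR2, CELSR3, DCHS1, FAT4, PCDH7, PCDH9, PCDH10, PCDH17 and PCDH19. Their median enrichment was 0.89 in shCTL and 0.95 in shA5 cells, and 7 of the 10 (70.0%) were enriched in each. The 190 other genes with such an exon had medians of 0.64 and 0.71, and 53.7% and 56.3% of them were enriched. Of the 4 members without one, CDH4 was enriched in shCTL cells and CDH15 and CDH22 in shA5 cells, while 21.2% and 23.0% of the 5088 other genes without one were. The medians of these 4 were 0.20 and 0.46, against -0.15 and -0.14 in the other genes without such an exon. The 2000 nt limit was chosen with the members' values known, and the part of exon structure in the members' enrichment was not tested.

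PCDH9 departed from this pattern. It has 3096 nt of coding sequence in its second and last exon, the longest transcript of the 14 (28227 nt) with a 3′ UTR of 24327 nt, and 98.6% of its bases lie over 200 nt from a junction. Its GC content of 34.3% was the lowest of the 14, and that of DSG2 was 41.2%. CDH22 and CDH15 had the highest, 66.4 and 66.0%. Over 5292 genes with an annotated transcript the Spearman correlation with enrichment was 0.47 in shCTL and 0.49 in shA5 cells for the longest coding stretch, 0.36 and 0.39 for GC content, and -0.04 and -0.06 for motif density. These are descriptions across genes that share the same libraries, and the part that GC content plays in the members' values was not tested. After a trend on GC content was taken out, 6 of the 14 in shCTL cells and 5 in shA5 cells (DCHS1, FAT4, PCDH7, PCDH17 and PCDH19) were enriched, where 20.9% and 22.4% of the 5292 genes were.

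**Figure D3:**
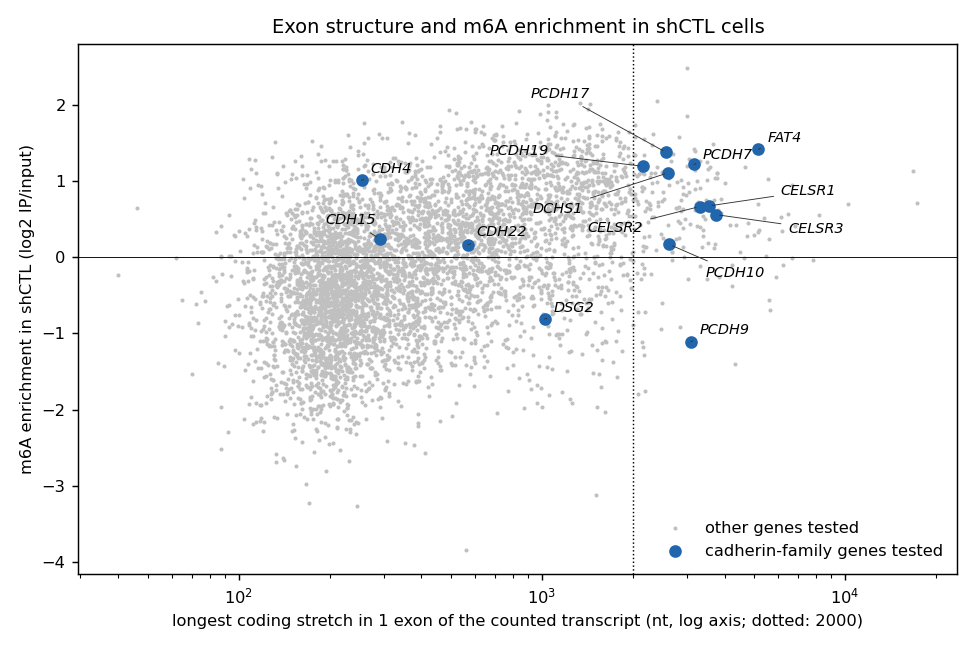
Longest coding stretch within 1 exon of the counted transcript (nt, log axis) against m6A enrichment in shCTL cells for the 5281 genes with coding sequence, with the 14 cadherin-family genes as large labelled points. Of the 14, 10 lie right of the dotted line at 2000 nt, and PCDH9 is the 1 of them below 0.

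Depletion of ALKBH5 was the comparison the study was made for, and the question here was whether the m6A enrichment or the RNA level of cadherin-family genes differed between shA5 and shCTL cells. The 14 moved little as a set. The change of enrichment, shA5 minus shCTL on the log2 scale, had a median of 0.07 with 10 genes above 0 and 4 below, beside a median of 0.0036 for all genes. Of the 14, 2 were higher by 1.5-fold or more (CDH15 and CDH22) and 1 was lower (CDH4), where 5.38% and 5.09% of all genes were. For each of the 14 the counting interval of the change included 0. The summed counts of the 14 gave a change of 0.05 (-0.03 to 0.13). With libraries thinned to the smallest total, 7 members reached the filter and their median change was -0.05, so that the direction of the median did not hold there.

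The values past 1.5-fold came from the genes with the fewest counts. CDH15 differed by 0.71 (-0.32 to 1.88) and CDH22 by 0.60 (-0.40 to 1.69), and the input of each held 13 and 15 counts in shA5 cells. CDH4 differed by -0.85 (-1.81 to 0.07), on 25 input counts in shA5 and 31 in shCTL cells. PCDH19 lay just inside the limit at 0.58 (-0.23 to 1.44). The next gene, PCDH17, was at 0.20 (-0.70 to 1.11). The well-counted Flamingo genes bound the change closely, to 0.11 (-0.08 to 0.29) for CELSR1, 0.02 (-0.17 to 0.20) for CELSR2 and -0.07 (-0.20 to 0.06) for CELSR3. For the remaining members the values were 0.12 (-0.47 to 0.72) for FAT4, 0.10 (-0.47 to 0.68) for PCDH7, 0.04 (-0.21 to 0.30) for DSG2, 0.02 (-0.59 to 0.64) for DCHS1, -0.06 (-0.83 to 0.72) for PCDH10 and -0.13 (-0.83 to 0.55) for PCDH9. The interval of every member with fewer counts than DSG2 reached past 1.5-fold in at least 1 direction, so that smaller differences in these genes were not detectable at this depth.

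The input RNA of the 14 was on the whole slightly lower in shA5 cells, with a median change of -0.18 (10 below 0 and 4 above), where the median of all genes was -0.02. In bulk RNA, fewer expressing cells and less RNA per cell cannot be told apart. None was higher by 1.5-fold and 2 were lower, CDH15 and CDH22, while 3.44% of all genes were higher and 6.43% lower. CDH15 had 19.2 CPM in the shCTL and 9.91 CPM in the shA5 input, a change of -0.92 (-1.97 to -0.03). CDH22 had 20.1 and 11.4 CPM, a change of -0.79 (-1.76 to 0.06). Their m6A-IP levels differed far less, by -0.21 (-0.70 to 0.27) and -0.19 (-0.69 to 0.29), so that the higher enrichment of both in shA5 cells came with a lower input and not with a higher m6A-IP. The same input counts enter both values. In CDH4, whose enrichment was lower in shA5 cells, the input change was 0.45 (-0.36 to 1.27) and the m6A-IP change -0.41 (-0.87 to 0.03).

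DSG2 was the one well-counted member whose input interval lay clearly below 0. It had 338 CPM in the shCTL and 263 CPM in the shA5 input, a change of -0.36 (-0.55 to -0.18), and 192 and 154 CPM in the m6A-IP, a change of -0.32 (-0.49 to -0.15). CELSR2 followed at -0.19 (-0.35 to -0.03) in the input and -0.17 (-0.26 to -0.09) in the m6A-IP. CELSR1 and CELSR3 differed by -0.08 (-0.24 to 0.08) and 0.03 (-0.08 to 0.15) in the input. In both DSG2 and CELSR2 the input and the m6A-IP were lower by a like amount and the enrichment stayed where it was, and both differences were under 1.5-fold.

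In the m6A-IP libraries none of the 14 was higher or lower by 1.5-fold, where 2.58% and 4.89% of all genes were. The median change was -0.14 for the 14 and -0.016 for all genes. PCDH17 was the highest at 0.38 (0.05 to 0.71), with 39.0 CPM in shCTL and 50.8 CPM in shA5 cells. PCDH9 was the lowest at -0.45 (-0.95 to 0.03), with 24.8 and 18.1 CPM.

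**Figure D4:**
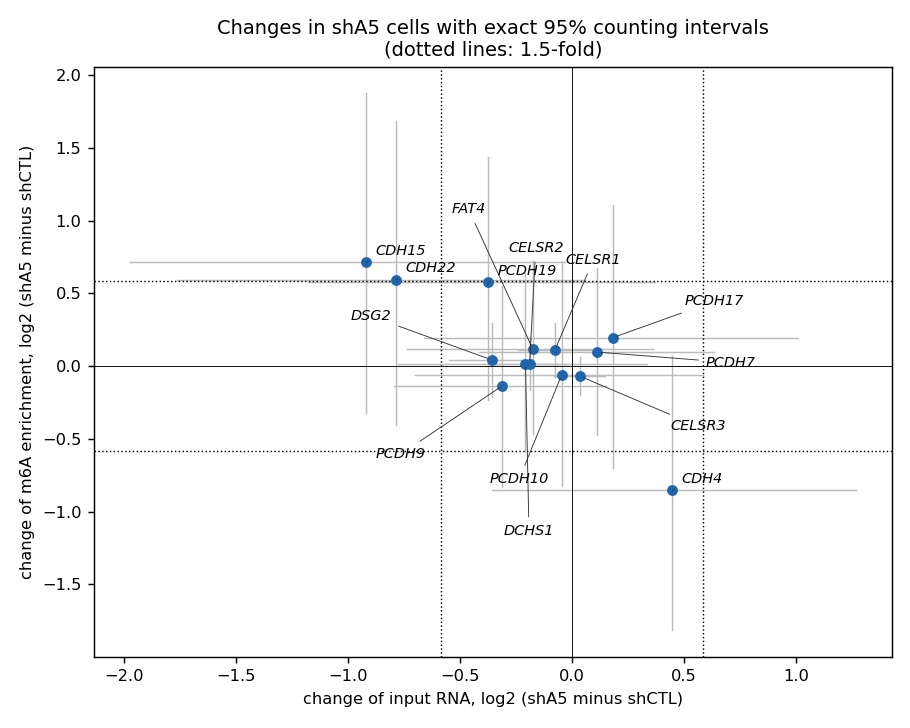
Change of input RNA against change of m6A enrichment (both log2, shA5 minus shCTL) for the 14 genes, with exact 95% counting intervals as bars and 1.5-fold as dotted lines. CDH15 and CDH22 lie at the upper left, CDH4 at the lower right, and the rest lie within 1.5-fold on both axes.

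Below the filter stayed 54 listed members. CDH1 (E-cadherin), the main adhesion molecule of epithelia, was listed in no library. CDH2 (N-cadherin), which replaces it in mesenchymal and neural cells, had 23 input and 5 m6A-IP counts in shCTL cells and 10 and 9 in shA5 cells. The input change of CDH2 was -0.41 (-1.67 to 0.70), and its enrichment was -2.61 (-4.77 to -1.59) and -1.27 (-2.89 to 0.04). The interval of the input change reached past 1.5-fold on either side of 0, so that a difference of that size in the input RNA of CDH2 was not detectable at this depth. For CDH1, 3 counts would be 1.34 CPM in shCTL and 2.29 CPM in shA5 input RNA.

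The study listed RT-qPCR primers for both genes. It reported RNA of epithelial to mesenchymal transition markers for irradiated HCT116 colorectal cancer cells, not for the HEK293T cells counted here. In HCT116 cells the paper found no significant effect of ALKBH5 on such markers, E-cadherin and N-cadherin among them. As CDH1 was listed in no library and CDH2 had few counts, that result was not tested here. The CDH1 forward primer lies in exon 2 (chr16:68738350-68738369) and the reverse primer in exon 3 (chr16:68801706-68801726, plus-strand gene). The CDH2 forward primer spans the junction of exons 1 and 2, from chr18:28176966 to chr18:28147769 on the minus strand, and the reverse primer lies in exon 2 (chr18:28147695-28147717). All 4 are in coding sequence (hg38) and each matched some transcripts of its own gene and 0 transcripts of any other in Gencode v44.
CDH1 forward: CGAGAGCTACACGTTCACGG
CDH1 reverse: GGGTGTCGAGGGAAAAATAGG
CDH2 forward: TCAGGCGTCTGTAGAGGCTT
CDH2 reverse: ATGCACATCCTTCGATAAGACTG
The CDH1 primers matched 4 and 7 of 11 annotated transcripts and the CDH2 primers 4 and 5 of 11. A low gene count in these tables need not be a low RNA level. Only 3.14% of the bases of the counted CDH2 transcript lie in no other annotated transcript, and how reads shared by transcripts were counted is not given in the sources used here. GAPDH, VIM and CTNNB1, chosen after their values were seen, had 34.9, 1.79 and 9.83 CPM in the shCTL input, where ACTB had 580 CPM. The share of unique bases was 0% in FAT3, 6.09% in PCDH1, 9.51% in DSC3 and 100% in DSG3, which all had few counts, and 2.87% in CELSR1, which had many. What shared reads contribute to these counts was not tested.

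Besides CDH2 and DSG3, the 7 members below the filter with at least 40 summed counts were CDH26, CDH23, CDH3, FAT3, PCDH1, CDH7 and DSC3. PCDH1, a protocadherin of airway epithelium, had 3, 29, 10 and 17 counts, an enrichment of 2.09 (0.77 to 4.81) and -0.46 (-1.71 to 0.79). CDH7, a type II cadherin of the nervous system, went the other way, with 17, 15, 2 and 16 counts and an enrichment change of 2.37 (0.25 to 6.05). Each of these rests on an input of 3 or 2 counts. DSC3, which pairs with desmogleins in stratified epithelia, had 6, 14, 11 and 10 counts, and its keratinocyte partner DSG3 had 17, 7, 10 and 7, an enrichment of -1.83 (-3.61 to -0.75) in shCTL and -1.58 (-3.41 to -0.24) in shA5 cells. CDH26 had 26, 29, 26 and 20 counts, and CDH23, CDH3 and FAT3 each had 30 or fewer in any library. The remaining 45 members had 1 to 24 counts over all libraries, and 28 of them had 3 or fewer.

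The clustered protocadherins, whose alpha, beta and gamma arrays on chromosome 5 give each neuron its own set of surface proteins through stochastic promoter choice, were hardly counted. Together, the 34 that were listed had 32 input and 55 m6A-IP counts in shCTL cells and 24 and 40 in shA5 cells. The highest single member, PCDHB15, had 24 counts over all libraries. Summed enrichment was -0.04 (-0.69 to 0.64) in shCTL and -0.51 (-1.29 to 0.27) in shA5 cells. The alpha genes had 8, 2, 8 and 4 counts, the beta genes 12, 30, 7 and 19 and the gamma genes 12, 23, 9 and 17, and the intervals of the beta and gamma sums included 0 in both populations. The alpha sum was the lowest of all classes, at -2.02 (-6.09 to -0.49) in shCTL and -1.90 (-4.45 to -0.36) in shA5 cells, on these few counts. Genes of the alpha array share their last exons with each other, as do those of the gamma array, whereas the beta genes share none. The transcript with the most counts had 1 exon, and so no shared one, in all 6 alpha genes and in 11 of 16 gamma genes, and for the other 5 gamma genes reads from shared exons cannot be given to 1 gene.

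**Figure D5:**
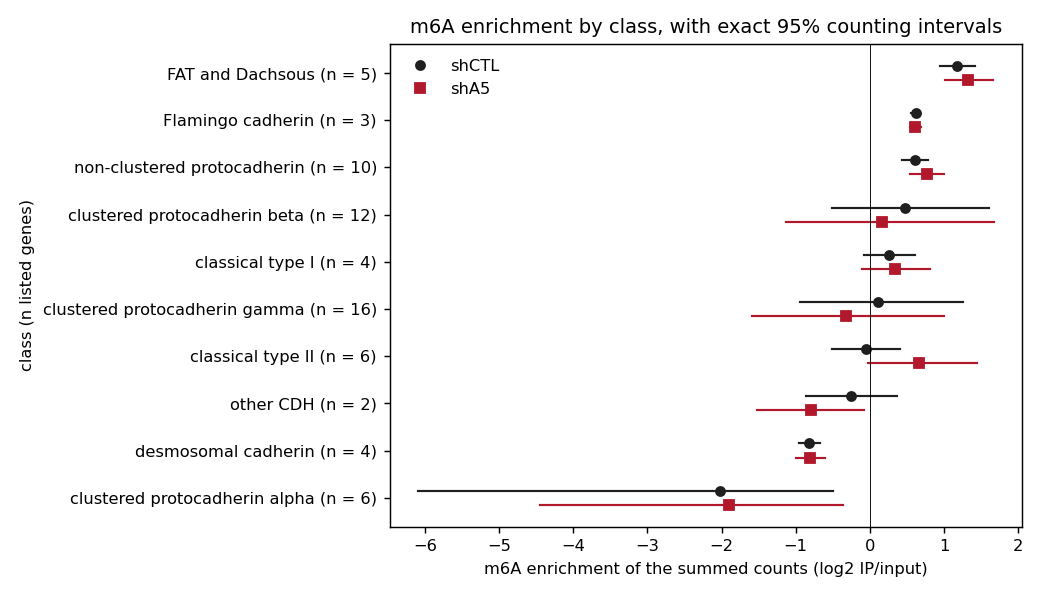
m6A enrichment (log2) of the counts summed over all listed genes of each class in shCTL (circles) and shA5 (squares) cells, with exact 95% counting intervals and the number of listed genes. FAT and Dachsous cadherins lie highest at 1.18 and 1.32, desmosomal cadherins lie at -0.81 and -0.80, and the clustered classes have wide intervals, with the alpha genes lowest at -2.02 and -1.90.

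The proteins that work with cadherins were taken as lists. Of 21 catenin, plaque and nectin genes 18 were listed and 7 reached the filter, with a median enrichment of 0.31 in shCTL cells. None of the 7 differed by 1.5-fold in enrichment or input, where 3.44 to 6.43% of all genes did in each direction. In the m6A-IP 1 was lower (4.89% of all genes), ARVCF, a p120-catenin relative, at -0.73 (-1.13 to -0.36). JUP (plakoglobin), which links cadherins to the cytoskeleton and was below the filter, had 35, 45, 45 and 35 counts, an input change of 1.11 (0.46 to 1.81) and an enrichment change of -1.14 (-2.14 to -0.20). It was named after its values were seen. CTNNA1, CTNNA2 and PKP1 were listed in no library. Of 15 partners of the FAT, Dachsous and Flamingo genes in planar polarity 8 reached the filter, and 2 had a lower input by 1.5-fold, where 6.43% of all genes did. These were VANGL2, the core polarity protein, with 323 and 106 input counts and a change of -0.83 (-1.17 to -0.52), and DVL1, which carries Wnt and polarity signals, with 240 and 90 and a change of -0.64 (-1.01 to -0.29). None of the 8 differed in enrichment by that size, where 5.38% of all genes were higher and 5.09% lower.

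Of 13 genes that act in protocadherin promoter choice, such as CTCF and cohesin subunits, 7 reached the filter, as did 4 of 10 cadherin proteases, and none of these 11 differed by 1.5-fold in enrichment, input or m6A-IP, where 2.58 to 6.43% of all genes did in each direction, so that 0 of 11 is near the background. Of 9 regulators and markers of the epithelial to mesenchymal transition 2 reached it. One was TWIST1, a repressor of CDH1, with 59, 339, 20 and 227 counts, an input change of -0.77 (-1.60 to -0.04) and an enrichment of 1.69 and 2.20. The other was SNAI2, which also represses CDH1, with 261, 693, 141 and 420 counts, an input change of -0.12 (-0.42 to 0.18) and an enrichment of 0.59 and 0.31, so that its enrichment was lower and that of TWIST1 higher in shA5 cells, each by less than 1.5-fold. Of the 4 HEK293 markers that reached it, KRT8 was higher in enrichment by 0.85 (5.38% of all genes were higher) and in the m6A-IP by 0.79 (2.58%), and LHX1 was lower in the input by 0.96 (6.43%).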

How the data were processed

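Irradiated HEK293T cells with shCTL or shA5 were measured by m6A-seq, 1 input and 1 m6A-IP library each. The authors deposited raw counts, whole numbers for each Ensembl transcript that had any, with transcript lengths. Per the labels and the methods, polyadenylated RNA was used, reads were processed with fastp 0.23.2, aligned to hg38 with HISAT2 and sorted with SAMtools 1.9. The methods name StringTie for quantification, but which program made the count tables, with which annotation, strand setting and rule for shared reads, is not given in the sources used here. The deposited transcript lengths were used for the levels per kilobase alone, and all other lengths came from Gencode v44. The 2 sources differ for some transcripts.

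Counts were summed per gene name and divided by the library total (CPM). Enrichment was log2 of m6A-IP CPM over input CPM with a pseudocount of 0.5 CPM, which understates changes of low genes. Genes whose mean reached 50 counts were used, and changes of at least 1.5-fold were named. With 1 library per group no test was made. Intervals are exact binomial (Clopper-Pearson) for ratios and conditional odds-ratio intervals for changes of enrichment, at 95%. They were computed on raw counts without the pseudocount that the values carry, so that for low genes a value is not centred in its interval. The script was checked on simulated data. The genes described singly are members at the filter and those below it with at least 40 summed counts. The family, the partner lists (catenins and plaque proteins, planar polarity partners, protocadherin promoter choice, cadherin proteases, EMT regulators) and the marker lists were chosen with earlier results of these data known. Alternatives were TMM factors (edgeR 4.0.16), DESeq2 1.42.0 size factors, pseudocounts of 0.1 and 2 CPM, other filters, a 2-fold size, libraries thinned to the smallest total, the transcript with the most counts only, totals without the top 10 genes, and removal of a GC trend, the last chosen after seeing the data. Python 3.11.15 with pandas 2.3.3 and scipy 1.17.1 was used. The sequence window of 1 gene is not reported here.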

Additional observations from a re-analysis of the deposited data

How the results depend on the processing

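No member's value at or past 1.5-fold changed its sign under the alternatives run. Smaller values did. Thinning libraries to the smallest total turned the median change of enrichment from 0.07 to -0.05, the change of enrichment of CELSR2 (-0.05), DSG2 (-0.15), DCHS1 (-0.07) and PCDH10 (0.32) and the input change of PCDH17 (-0.23). It also turned the enrichment of CDH4 in shA5 cells and 3 values of members below the filter. Removing the GC trend turned the enrichment of CDH15 (-0.32) and CDH22 (-0.42) in shCTL cells, that of CDH4 in shA5 cells (-0.13) and 3 changes of enrichment, and taking only the transcript with the most counts turned 1 such change (PCDH10) and 2 values of CDH3. TMM factors turned the input change of DSG3 from 0.0051 to -0.0026. No paired analysis was possible because groups are single libraries, and for the same reason no library could be left out.

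The numbers of members past 1.5-fold depended on the filter and on the size asked for, and the share of all genes is given after each. With a mean of at least 10 counts (23 members) 7 were higher (12.6%) and 4 lower (13.0%) in enrichment in shA5 cells, and 3 were higher (9.32%) and 5 lower (12.5%) in the input. With a mean of at least 200 (5 members) 3 were enriched in shCTL (29.1%) and 3 in shA5 cells (31.0%), 0 were higher (1.65%) or lower (1.08%) in enrichment and 0 lower in the input (3.33%). With no filter (68 members) 26 (21.6%) and 25 (24.5%) were enriched, median enrichment was 0.044 and 0.00, 23 were higher (22.7%) and 25 lower (21.4%) in enrichment, and 13 were higher (15.3%) and 17 lower (19.9%) in the input. With a 2-fold size 5 were enriched in shA5 cells (12%), 0 were higher (0.846%) or lower (0.771%) in enrichment and 0 lower in the input (1.15%). In thinned libraries (7 members) 5 were enriched in shCTL (24.2%) and 5 in shA5 cells (25.8%), and 0 were higher (4.88%) or lower (5.13%) in enrichment or lower in the input (4.93%), where CDH4, CDH15 and CDH22 no longer reached the filter. Their thinned changes were -0.85 in enrichment for CDH4, 0.74 in enrichment and -0.79 in the input for CDH15, and 0.38 and -0.82 for CDH22. With a pseudocount of 2 CPM CDH15 alone (1 gene) was higher in enrichment (4.81%). With the GC trend removed 5 were enriched in shA5 cells (22.4%), and the cause of this drop was not tested. TMM factors, DESeq2 size factors and a pseudocount of 0.1 CPM each added PCDH19 to the genes higher in enrichment, 3 in all (5.77, 5.66 and 5.58%). Depth limits the shA5 input most.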

Other observations

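A mean of 50 counts was reached by 17.6% of coding genes with 1 annotated transcript, 24.5% with 2 to 4, 29.1% with 5 to 9 and 29.0% with 10 or more, and what this share owes to the counting of shared reads was not tested. Of the 105 coding genes of the family, 0 of 7 with 1 annotated transcript reached it, 8 of 64 with 2 to 4, 4 of 22 with 5 to 9 and 2 of 12 with 10 or more. Of the 14 members that reached it, PCDH7 and PCDH10 had counts on 2 transcripts and the other 12 on 1.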
